A study of Homo sapiens with 6 samples.

Results

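Mast cells and basophils share a set of genes for making, storing and releasing histamine and for sensing immunoglobulin E (IgE), and 9 of these genes are described here in NB4 cells with and without ARID1A. The members were HDC, SLC18A2, TPSAB1, TPSB2, CPA3, KIT, MS4A2, IL1RL1 and ENPP3, out of 52992 genes in the tables after transcripts were summed. They were chosen by their role in these cells but with earlier estimated counts and TPM of the same 6 samples known, so their values against the control are given as a description. Of the 9 members, 8 passed the filter on low counts and CPA3 did not.

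NB4 is an established cell line from acute promyelocytic leukemia. RNA-sequencing was performed on 6 samples in 3 groups of 2 replicates. All of them came from NB4 cells with stable Cas9 and a vector from which doxycycline switches on a small guide RNA (sgRNA), and all were exposed to 1 µg/ml doxycycline over 7 days. According to the methods, they then grew without doxycycline for 2 days before RNA was taken. The control group, labeled WT, expressed an sgRNA against the bacterial lacZ gene (LacZ), while both other groups, labeled ARID1A-deficient, expressed ARID1A sg1 or ARID1A sg5. The ARID1A protein belongs to SWI/SNF, a complex that remodels chromatin. The methods describe cells sorted for the fluorescent reporters of both vectors, and no single clone is mentioned, so each group was taken as a pool in which the share of edited cells is not known from these files. The comparison asks how loss of ARID1A altered gene expression in this line.

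In mast cells and basophils, histamine is made from histidine in the cytoplasm, pumped into granules by a vesicular transporter and held there on proteoglycans together with tryptases and carboxypeptidase. Release follows when antigen crosslinks IgE on its high-affinity receptor. Mast cells depend on the growth factor receptor KIT, and the alarmin IL-33 acts on them through its receptor IL1RL1. Promyelocytes, the stage NB4 cells resemble, are granule-forming precursors of neutrophils, and basophils, eosinophils and mast cells arise from related progenitors.

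The total estimated count was between 46131178 and 54843745 per sample, and 18514 genes were tested. Of 10 promyelocyte markers, 9 were present with a mean of at least 10 counts and only ELANE was below that. By the same limit 8 of 10 monocyte markers and 7 of 10 eosinophil markers were present. Presence at this limit therefore does not tell the lineages apart, and summed levels are given below. In CPM (counts scaled to library size with TMM factors), ARID1A itself was at 155 and 191 in LacZ, 211 and 191 with sg1 and 124 and 145 with sg5. The sg1 samples lay at or above the LacZ samples and the sg5 samples below them, and ARID1A was not called in sg1 (log2 fold change 0.22 ± 0.14 (SE), edgeR adjusted p = 0.993) or in sg5 (−0.36 ± 0.14, adjusted p = 0.661). Indels made by Cas9 need not change the RNA level, so this value does not check the labels. Replicate 1 of sg1 and replicate 2 of sg5 stood apart from the other 4 samples on the first principal component, which held 34.4% of the variance, with scores of 34.3 and 46.8 against −30.3 to −11.3. HDC is therefore also given without this pair of samples.

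In the members, HDC carried the clearest difference. It was 2.40-fold lower in the ARID1A-deficient samples than in LacZ, and TPSAB1, TPSB2 and MS4A2 were lower by between 1.80-fold and 1.94-fold in the fit that joined sg1 and sg5. SLC18A2 did not follow them, and its levels overlapped between all groups. KIT, IL1RL1, ENPP3 and MS4A2 had a mean under 50 counts, and CPA3 was too low to judge. For 6 of the 8 tested members (HDC, TPSAB1, TPSB2, MS4A2, IL1RL1 and KIT), all 4 ARID1A-deficient samples lay below both LacZ samples in CPM, as they did for 10.4% of all tested genes. Of the 8, 1 member (HDC) was called at a false discovery rate (FDR) of 0.1 in sg1 against LacZ, in sg5 against LacZ and with sg1 and sg5 joined, where 0.0378%, 0.0972% and 0.167% of all tested genes were called. The HDC call was lost when LacZ replicate 1 or LacZ replicate 2 was left out (joined edgeR adjusted p = 0.245 and 0.229), and in sg1 also without sg1 replicate 1 or 2 (0.225 and 0.170). These counts describe members chosen with that contrast known. In bulk RNA, fewer cells that express a gene and less RNA per cell cannot be told apart.

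**Figure D1:**
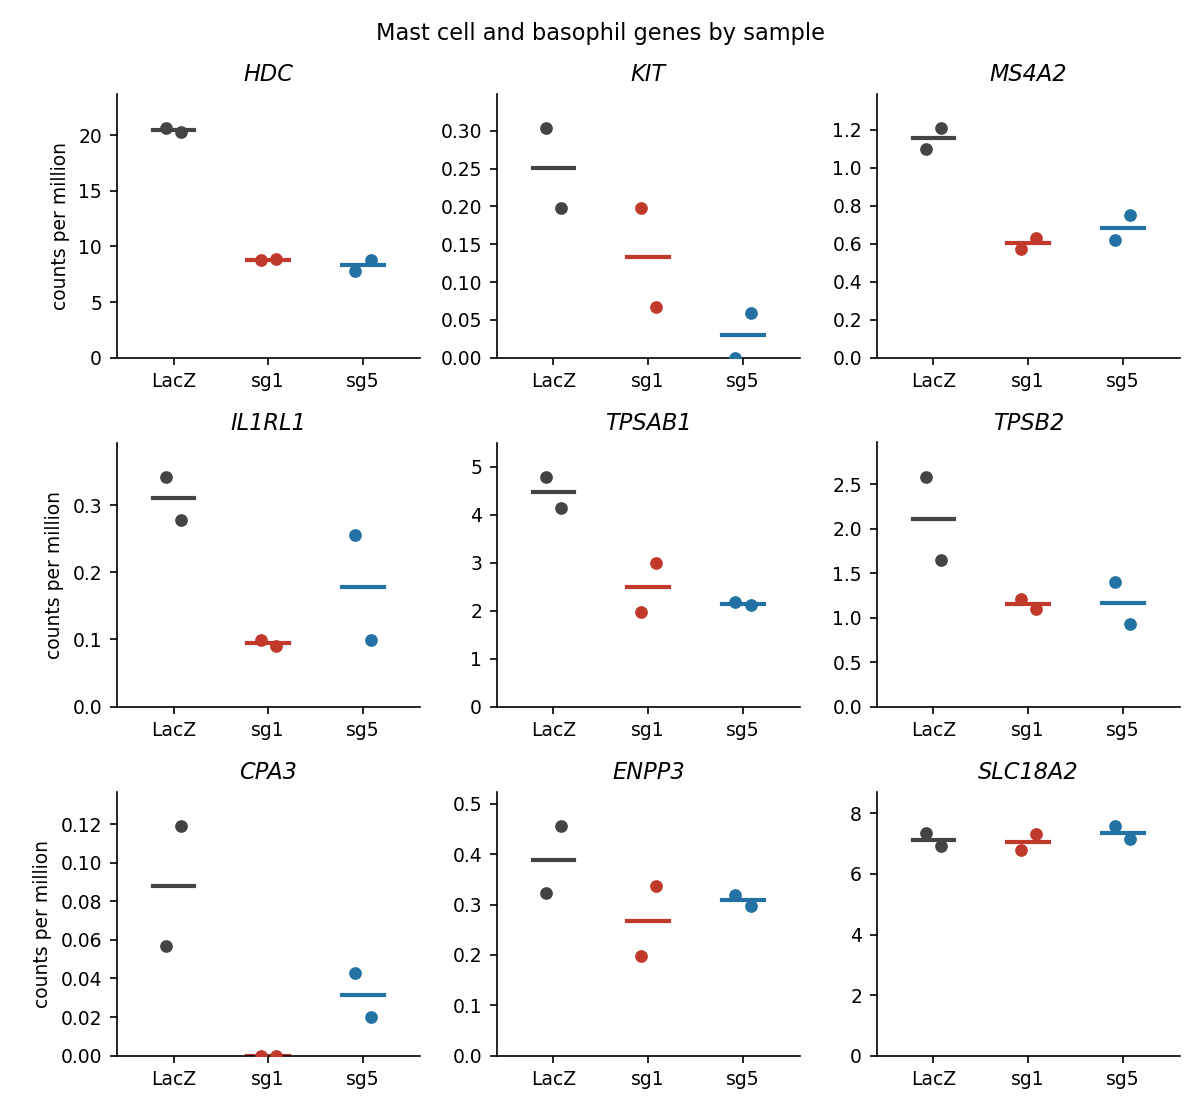
CPM (vertical axes, linear, starting at 0, a separate range in each panel) of the 9 members in LacZ, sg1 and sg5. Points are the 2 replicates of a group and lines their mean. The 4 ARID1A-deficient samples sit between 7.80 and 8.89 CPM for HDC, below the LacZ samples at 20.7 and 20.3, while the SLC18A2 points of the 3 groups overlap between 6.78 and 7.59.

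HDC encodes histidine decarboxylase, the enzyme that makes histamine. The gene (ENSG00000140287) lies on the minus strand of chromosome 15, from 50241947 to 50266026 on GRCh38 with GENCODE 29. Its estimated counts were 1088 and 1025 in LacZ, 442 and 395 with sg1 and 366 and 445 with sg5. Scaled to library size, this was 20.7 and 20.3 CPM in LacZ, 8.74 and 8.89 with sg1 and 7.80 and 8.80 with sg5. The groups did not overlap, and the lower LacZ sample was 2.29 times as high as the highest ARID1A-deficient sample. The log2 fold change was −1.22 ± 0.15 in sg1, −1.30 ± 0.15 in sg5 and −1.26 ± 0.13 with both joined (SE, n = 2 per group). Without the pair of samples that stood apart, it was −1.20 ± 0.17, −1.39 ± 0.17 and −1.30 ± 0.14, with 1 sample left in each of sg1 and sg5. In TPM, a per-length measure, HDC was at 17.7 in both LacZ samples and between 6.17 and 7.87 in the other 4.

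The HDC reads were divided over 7 transcripts, 3 of them protein-coding and 4 annotated with a retained intron. The protein-coding transcripts together had 421 and 375 estimated counts in LacZ, 110 and 92.6 with sg1 and 107 and 138 with sg5. The retained-intron transcripts had 667 and 650 in LacZ, 332 and 302 with sg1 and 259 and 307 with sg5. Both classes were thus lower in all 4 ARID1A-deficient samples. The retained-intron share of HDC counts was 61.3% and 63.4% in LacZ, 75.1% and 76.6% with sg1 and 70.8% and 68.9% with sg5. This share was higher in the ARID1A-deficient samples without overlap, and its difference was not tested. The most abundant HDC transcript in LacZ was itself one with a retained intron (HDC-207), at 42.9% of HDC counts in both LacZ samples. Reads that fit several transcripts were split between them by the authors' estimation, so single transcripts are less certain than the gene.

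**Figure D2:**
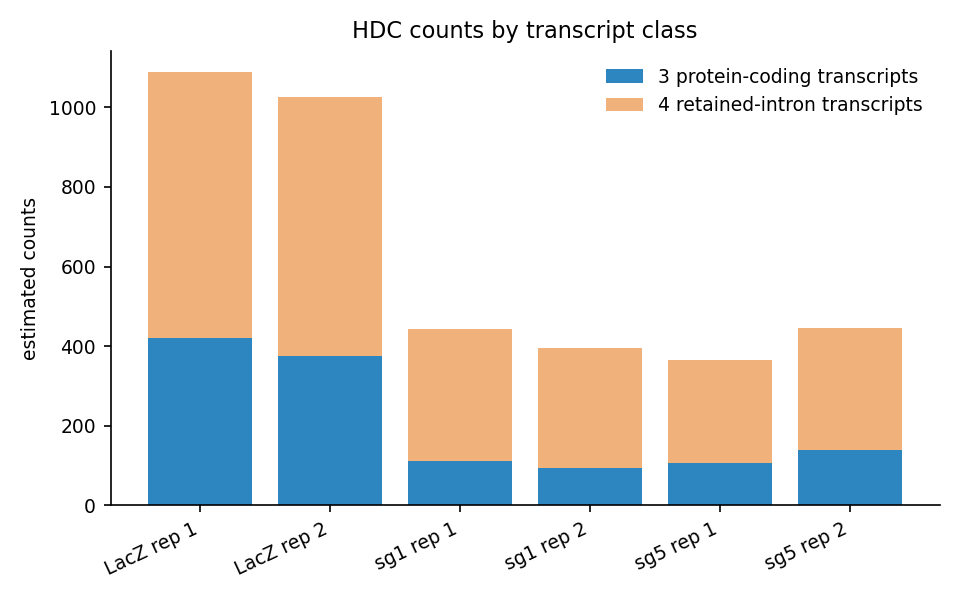
Estimated counts (vertical axis, linear) of HDC in each of the 6 samples, stacked by transcript class. The protein-coding part falls from 421 and 375 in LacZ to between 92.6 and 138 in sg1 and sg5, and the retained-intron part from 667 and 650 to between 259 and 332.

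SLC18A2 encodes VMAT2, the vesicular transporter that loads histamine and other monoamines into granules. The gene (ENSG00000165646) spans 117241073 to 117279430 on the plus strand of chromosome 10. Its level was 7.35 and 6.92 CPM in LacZ, 6.78 and 7.31 with sg1 and 7.59 and 7.14 with sg5. The 3 groups overlapped. The log2 fold change was −0.02 in sg1, with a 95% interval of −0.42 to 0.38, and 0.05 in sg5, with an interval of −0.36 to 0.45. All of its counts were assigned to SLC18A2-201. PDZD8 overlaps the end of SLC18A2 on the opposite strand, and the counting was not stated to use strand. Its estimated count, between 1980 and 2642 per sample, exceeded that of SLC18A2 in every sample.

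The tryptases are the main serine proteases of mast cell granules. TPSAB1 (ENSG00000172236) spans 1240696 to 1242554 on the plus strand of chromosome 16, and TPSB2 (ENSG00000197253) spans 1227272 to 1230184 on its minus strand. Their reads cannot be cleanly separated. The coding sequences of TPSAB1-201 and TPSB2-201 have the same length of 825 bases in GENCODE 29 and are 99.5% identical, with 4 differing bases. All 4 lie in a 90-base stretch within 1 exon, shown here from coding base 70 to coding base 159, with the differing bases in capitals. The TPSAB1 stretch is at chr16:1241161-1241250 on the plus strand and the TPSB2 stretch at chr16:1229640-1229729 on the minus strand (GRCh38).
TPSAB1: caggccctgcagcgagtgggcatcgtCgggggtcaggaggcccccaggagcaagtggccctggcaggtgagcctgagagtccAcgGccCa
TPSB2: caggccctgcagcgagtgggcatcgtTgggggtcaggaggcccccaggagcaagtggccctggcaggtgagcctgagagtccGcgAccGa
Over the whole transcripts, 80.9% of the 31-base words of TPSB2-201 also occur in TPSAB1-201. The deposited tables gave TPSB2-201 a length of 676 bases against 1165 in GENCODE 29, so the transcript set used for counting held a shorter model of it.

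TPSAB1 had 252 and 209 estimated counts in LacZ, 100 and 133 with sg1 and 102 and 107 with sg5, or 4.78 and 4.14 CPM in LacZ, 1.98 and 2.99 with sg1 and 2.17 and 2.12 with sg5. All 4 ARID1A-deficient samples were below both LacZ samples. The log2 fold change was −0.85 ± 0.27 in sg1, −1.06 ± 0.27 in sg5 and −0.95 ± 0.22 with both joined. TPSAB1 was not called by edgeR in the fit of all 6 samples with the low-count filter. It was called by DESeq2 in sg5 and with both joined, where DESeq2 called 1.09% and 1.43% of all tested genes. Without the low-count filter, edgeR also called it in these comparisons, where 1.92% and 2.13% of genes were called.

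TPSB2 had 2.58 and 1.65 CPM in LacZ, 1.21 and 1.10 with sg1 and 1.41 and 0.930 with sg5. The groups did not overlap, but the LacZ replicates differed more from each other than those of TPSAB1 did. Its log2 fold change was −0.87 ± 0.34 in sg1, −0.86 ± 0.34 in sg5 and −0.86 ± 0.28 with both joined. TPSD1, a further tryptase gene of the same cluster, was at 1.44 and 0.853 CPM in LacZ and between 0.396 and 0.746 in the other 4 samples, and it was not called (joined log2 fold change −0.96 ± 0.35, edgeR adjusted p = 0.601). TPSG1 had 0 counts in every sample. When TPSAB1, TPSB2 and TPSD1 were summed to 1 feature, which removes the division of shared reads, the counts were 464 and 335 in LacZ, 191 and 210 with sg1 and 203 and 174 with sg5. The summed tryptases were lower in all 4 ARID1A-deficient samples, with a log2 fold change of −0.86 ± 0.24 in sg1, −0.99 ± 0.24 in sg5 and −0.93 ± 0.20 with both joined, and they were not called. TPSB2 took between 23.4% and 32.4% of this sum across the 6 samples, with overlap between the groups.

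CPA3, mast cell carboxypeptidase A (ENSG00000163751, chromosome 3, plus strand, 148865256 to 148897196), had 3 and 6 counts in LacZ, 0 and 0 with sg1 and 2 and 1 with sg5. It did not pass the filter and was not tested. Summed over replicates, there were 9 LacZ counts against 0 in sg1. Taking 3 counts over the group as the limit that a count of 0 allows, the LacZ level was 2.85 times this limit. That value takes the 9 LacZ counts as exact, so it is not a firm minimum for the difference. The ratio of LacZ to sg5, 2.93, had a 95% exact interval of 0.731 to 16.8 from counting error only. Mast cell chymase (CMA1) was not detected in 4 of the 6 samples and had 4 counts in LacZ replicate 1 and 2 in sg1 replicate 2. Cathepsin G (CTSG), a protease of promyelocyte and mast cell granules, was abundant, at 92.9 and 90.7 CPM in LacZ, 59.2 and 70.6 with sg1 and 69.0 and 57.0 with sg5. All 4 ARID1A-deficient values were below the LacZ values, and CTSG was called by DESeq2 but not by edgeR (joined log2 fold change −0.52 ± 0.12, edgeR adjusted p = 0.265).

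MS4A2 encodes the beta chain of the high-affinity IgE receptor, which amplifies its signal. The gene (ENSG00000149534) spans 60088261 to 60098466 on the plus strand of chromosome 11. It had 58 and 61 counts in LacZ, 29 and 28 with sg1 and 29.2 and 38 with sg5. In CPM this was 1.10 and 1.21 in LacZ, 0.573 and 0.630 with sg1 and 0.618 and 0.752 with sg5. The groups did not overlap, and the log2 fold change was −0.94 ± 0.32 in sg1, −0.75 ± 0.31 in sg5 and −0.85 ± 0.27 with both joined. The receptor was incomplete at the RNA level in these cells. FCER1A, which encodes the chain that binds IgE, had 0 counts in all 6 samples, which allows a level of up to 0.0547 to 0.0650 CPM per sample. FCER1G, the signaling chain that many other receptors share, had 26.6 and 23.7 CPM in LacZ, 26.5 and 23.0 with sg1 and 25.7 and 20.9 with sg5, and the groups overlapped (joined log2 fold change −0.07, 95% interval −0.37 to 0.23).

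KIT is the receptor for stem cell factor. The gene (ENSG00000157404) spans 54657918 to 54740715 on the plus strand of chromosome 4. It had 16 and 10 counts in LacZ, 10 and 3 with sg1 and 0 and 3 with sg5. LacZ replicate 2 and sg1 replicate 1 had the same count and nearly the same CPM (0.198). The ratio of the summed LacZ counts to the summed sg1 counts, scaled to library size, was 1.90 with a 95% exact interval of 0.942 to 4.03, and the ratio to sg5 was 8.46 with an interval of 2.59 to 43.7, both from counting error only. The fitted log2 fold changes were −0.89 ± 0.83 in sg1 and −2.94 ± 1.03 in sg5. The sg5 value depends on a sample without a count, sg5 replicate 1. The ligand gene KITLG was not tested, with 0 to 4 counts in each sample.

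IL1RL1 encodes ST2, the receptor for IL-33. The gene (ENSG00000115602) spans 102311502 to 102352037 on the plus strand of chromosome 2. It had 17.8 and 14 counts in LacZ, 5 and 4 with sg1 and 12 and 5 with sg5. In CPM the ARID1A-deficient samples were lower, with sg5 replicate 1 at 0.256 close to LacZ replicate 2 at 0.278 and the other 3 between 0.0900 and 0.0989. The fitted log2 fold change was −1.69 ± 0.67 in sg1 and −0.81 ± 0.62 in sg5. In TPM the groups overlapped, with 0.128 and 0.101 in LacZ, 0.105 and 0.0960 with sg1 and 0.195 and 0.0439 with sg5. The 2 scales differ because the counts were assigned to different transcripts. In LacZ, 86.0% and 88.3% went to the longest transcript, and in sg1 replicate 1 and sg5 replicate 1 none did. With an offset for transcript length, the joined log2 fold change was −0.08. IL18R1 overlaps IL1RL1 on the same strand. The co-receptor gene IL1RAP had 43.7 and 40.7 CPM in LacZ and between 35.4 and 40.6 in the other 4 samples, and it was not called (joined log2 fold change −0.17 ± 0.11, edgeR adjusted p = 0.758). IL33 was not tested, with 1 to 12 counts in each sample.

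ENPP3 encodes CD203c, a surface ectoenzyme used to identify activated basophils. The gene (ENSG00000154269) spans 131628442 to 131747418 on the plus strand of chromosome 6. It had 0.323 and 0.456 CPM in LacZ, 0.198 and 0.338 with sg1 and 0.320 and 0.297 with sg5, from between 10 and 22.6 counts. The groups overlapped, and the fitted log2 fold change was −0.55 ± 0.50 in sg1 and −0.33 ± 0.49 in sg5.

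**Figure D3:**
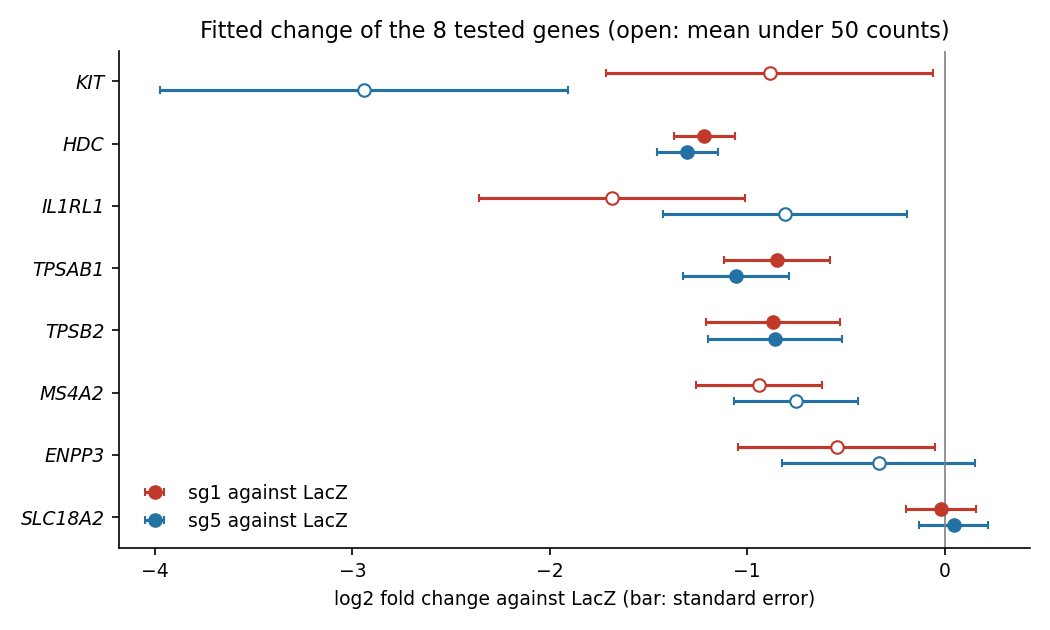
Fitted log2 fold change of the 8 tested members in sg1 (red) and sg5 (blue) against LacZ on the horizontal axis, with bars of 1 standard error (n = 2 per group). Open symbols have a mean under 50 counts. HDC, the tryptases and MS4A2 lie between −1.30 and −0.75 with both sgRNAs, SLC18A2 lies at −0.02 and 0.05, and the bars of KIT and IL1RL1 are the widest.

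Between genes, levels can be compared only per length. By mean TPM in LacZ the order was HDC, TPSAB1, TPSB2, SLC18A2, MS4A2, ENPP3, CPA3, IL1RL1 and KIT. HDC, at 17.7 in both samples, was above all others, and SLC18A2 at 2.53 and 2.33 was above MS4A2 at 1.66 and 1.64. TPSAB1 (5.89 and 5.29) and TPSB2 (6.52 and 4.11) were not separated in LacZ. CPA3, at 0.194 and 0.134, was above IL1RL1, at 0.128 and 0.101, by less than its own replicates differed, and IL1RL1 overlapped with KIT, at 0.135 and 0.0595. In the ARID1A-deficient samples HDC remained the highest, at between 6.17 and 7.87. SLC18A2, at between 2.23 and 2.56, overlapped with TPSAB1 (2.31 to 3.75) and TPSB2 (2.21 to 3.44).

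The members were chosen with values of the sg1 and sg5 samples known, so the comparison of the sgRNAs with each other is also given as a description. In sg1 against sg5, 0 of the 8 tested members were called by edgeR and 0 by DESeq2, and 0 had an unadjusted p under 0.05 in edgeR. Over all tested genes edgeR called 0.0054% in this contrast and DESeq2 0.027%, and 1.38% had such a p in edgeR. KIT differed most (2.05 ± 1.11, edgeR adjusted p = 1). For HDC the difference of sg1 from sg5 was 0.09 on the log2 scale, with a 95% interval of −0.26 to 0.44. For TPSAB1 it was 0.21 (−0.41 to 0.83), for MS4A2 −0.19 (−0.93 to 0.56) and for SLC18A2 −0.06 (−0.47 to 0.34). With 2 replicates per group, the differences within each interval remain possible at the 95% level, and the intervals are not limits of detection. Without the pair of samples that stood apart, edgeR called HDC, KIT and TPSAB1 in sg5 and with both joined and HDC in sg1. In that fit 4.09%, 4.2% and 2.2% of genes were called, from 1 sample each of sg1 and sg5 that were assumed to vary like the LacZ replicates. The KIT call in sg5 rests on sg5 replicate 1, the only sg5 sample left, which had 0 KIT counts. KIT was called under no other alternative.

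Markers of other lineages were summed in the same samples. The summed level of 10 eosinophil markers was 101 to 106 CPM in LacZ, 50.9 to 60.9 with sg1 and 49.4 to 56.0 with sg5, with PRG3, CLC and IL5RA under a mean of 10 counts. Of these, PRG2 (major basic protein, joined log2 fold change −1.55 ± 0.12, edgeR adjusted p = 0.00634) and EPX (eosinophil peroxidase, −1.86 ± 0.20, adjusted p = 0.0182) were called lower. PRG2 alone made up 62.9 and 71.8 CPM of the LacZ sums. Of the 7 tested eosinophil markers, 4 had a negative and 3 a positive joined log2 fold change (RNASE3, ADGRE1 and CCR3, at 0.04 to 0.43 and not called), with a median of −0.15. The summed level of 10 megakaryocyte markers was 22.5 to 26.3 CPM in LacZ, 9.14 to 14.7 with sg1 and 5.26 to 7.67 with sg5. The defining megakaryocyte genes GP9 and PF4 were at 0, and ITGA2B (the integrin alpha chain of platelets) was called lower (−2.10 ± 0.18, adjusted p = 0.00717), 1 of 4 negative among 5 tested markers. GP1BB, which was not called, varied within sg1, at 5.35 and 7.56 CPM in LacZ, 8.72 and 2.97 with sg1 and 0.597 and 0 with sg5. GP1BA and TUBB1 hardly differed (joined 0.005 and −0.05). For 10 monocyte markers the sum was 206 to 217 CPM in LacZ, 273 to 502 with sg1 and 346 to 367 with sg5, of which LYZ (lysozyme) made up 131 and 128 CPM in LacZ. Of the 8 tested monocyte markers, 4 were negative and 4 positive, and 0 were called. The promyelocyte markers summed to 16097 to 18095 CPM in LacZ, 15574 to 16903 with sg1 and 14467 to 15817 with sg5. MPO alone made up 14817 and 16825 CPM of the LacZ sums. Of the 9 tested promyelocyte markers, 8 had a negative joined log2 fold change and 1 (RNASE2, 0.67) a positive one, and 0 were called. Erythroid markers summed to between 4.35 and 6.48 CPM in every group, with 5 of 10 at 0. EPOR made up 4.73 and 5.75 CPM of the LacZ sums. The sums of B cell markers were 30.4 to 32.5 CPM in LacZ and 34.2 to 44.2 in the other groups, with 3 of 6 tested markers negative and 3 positive. The sums of T cell markers, 148 to 176 CPM in LacZ and 112 to 134 in the other groups, were nearly all CD4, a gene that myeloid cells also express (170 and 142 CPM in LacZ, joined −0.46 ± 0.12, edgeR adjusted p = 0.346). Of the 4 tested T cell markers, 2 were negative and 2 (CD3D and CD3G) positive, and 0 were called. The part of these lineages in the members' values was not tested. The 9 members summed to 35.3 to 37.5 CPM in LacZ, 19.8 to 21.4 with sg1 and 20.2 in both sg5 samples. This is a small share of the promyelocyte sum, which is mostly MPO.

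The pathways around the members were taken from 8 lists of other genes. In each of the 3 comparisons with LacZ, 0 of their 119 tested genes were called by edgeR, while 14 in sg1, 23 in sg5 and 24 with both joined had an unadjusted p under 0.05, as did 4.15%, 7.47% and 7.21% of all tested genes. DESeq2 called 0 in sg1, 2 in sg5 (CTSG and SH2B2) and 4 with both joined (CTSG, SH2B2, the prostaglandin D2 receptor gene PTGDR2 and SIGIRR). Of all tested genes, DESeq2 called 0.627%, 1.09% and 1.43%. CTSG, SH2B2 and PTGDR2 (joined edgeR log2 fold change −1.25 ± 0.28) were lower in the ARID1A-deficient samples, whereas SIGIRR, an inhibitory receptor of the IL-1 receptor family, was higher (0.40 ± 0.11). PTGDR2 and SIGIRR were named after their values were seen. At an unadjusted p under 0.05, 4.32% of all tested genes were lower and 2.89% higher with both sgRNAs joined. Over all tested genes the joined median log2 fold change was −0.01, and it was −0.91 over the 8 tested members, which were chosen with this contrast known. The list of histamine handling and histamine receptors had 11 tested genes. Among them were AZIN2, OAZ1 and ODC1 of the polyamine pathway (joined −0.07, 0.06 and 0.005). Of the 11 genes, 0 had an unadjusted p under 0.05, and their joined median was −0.12. HNMT, which inactivates histamine by methylation, was at 0.266 and 0.397 CPM in LacZ, 0.257 and 0.158 with sg1 and 0.170 and 0.0791 with sg5 (joined log2 fold change −1.03 ± 0.51, edgeR adjusted p = 0.741). AOC1, the diamine oxidase that degrades extracellular histamine, overlapped between groups, at 6.32 and 5.06 CPM in LacZ, 6.23 and 2.41 with sg1 and 3.22 and 3.62 with sg5. The receptor genes HRH1 and HRH2 also overlapped between groups, and HRH4 was at 0.361 and 0.714 CPM in LacZ and between 0.270 and 0.341 in the others (joined −0.76 ± 0.40, adjusted p = 0.742).

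Among 22 tested genes of KIT signaling, 4 had an unadjusted p under 0.05 with both sgRNAs joined, all lower, and the median was −0.09. SH2B2, an adaptor that binds activated KIT, was the furthest from 0, at 5.81 and 5.85 CPM in LacZ, 3.01 and 3.71 with sg1 and 2.96 and 2.75 with sg5. It was lower in all 4 ARID1A-deficient samples but was not called by edgeR (joined log2 fold change −0.91 ± 0.19, edgeR adjusted p = 0.199). Among 21 tested genes of the IgE receptor pathway, 1 was lower and 3 higher at an unadjusted p under 0.05, with a median of −0.04. The kinase gene FYN was furthest from 0 in that list, and its low values were those of the pair of samples that stood apart, at 21.2 CPM in sg1 replicate 1 and 22.4 in sg5 replicate 2 against 57.7 and 48.3 in the other replicates and 57.1 and 72.3 in LacZ. In the IL-33 axis 1 of 10 tested genes was lower and 2 were higher at that p, and IL18RAP, a subunit of the IL-18 receptor, was furthest from 0 (joined −0.74 ± 0.26, adjusted p = 0.578).

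Of 14 tested granule genes, 2 were lower and 1 was higher at an unadjusted p under 0.05, with a median of 0.10, and CTSG and TPSD1 were the lower ones. Of 6 tested genes for lipid mediators, 1 was lower at that p. This was PTGS1, the cyclooxygenase that starts prostaglandin synthesis, at 60.8 and 49.5 CPM in LacZ and between 33.4 and 47.8 in the other 4 samples (joined −0.50 ± 0.15, adjusted p = 0.458). The prostaglandin D synthase gene HPGDS had 1 count in sg1 replicate 2 and 0 elsewhere. Of 18 tested surface receptors, 3 were lower and 1 was higher at that p. CD69, an early activation marker, was furthest from 0 (joined −1.54 ± 0.42, adjusted p = 0.382), and its LacZ replicates were at 1.23 and 0.476 CPM. IL3RA, the IL-3 receptor chain that basophils carry at high levels, had 5.05 and 4.52 CPM in LacZ and between 4.69 and 6.01 in the others, with overlap.

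Transcription factors of these and other blood lineages, PAX5 and CEBPE among them, formed the last list. In it, 4 of 21 tested genes were lower and 1 higher at an unadjusted p under 0.05, with a joined median of −0.17. The higher one was IRF8 (joined 0.32 ± 0.14, edgeR adjusted p = 0.687). GATA1, which acts in the erythroid, megakaryocyte, eosinophil and mast cell lineages, was at 1.92 and 1.59 CPM in LacZ, 0.949 and 1.10 with sg1 and 0.448 and 0.989 with sg5. Its log2 fold change was −0.77 ± 0.38 in sg1, −1.28 ± 0.39 in sg5 and −1.03 ± 0.32 with both joined (edgeR adjusted p = 0.993, 0.536 and 0.482). GATA2, which is needed for mast cells and basophils, was at 26.2 and 28.6 CPM in LacZ, 21.3 and 18.2 with sg1 and 17.3 and 22.5 with sg5 (joined −0.47 ± 0.14, adjusted p = 0.444). MITF, a further mast cell factor, was at 4.90 and 4.88 CPM in LacZ and between 3.13 and 4.63 in the others (joined −0.29 ± 0.21, adjusted p = 0.779). GATA1, GATA2 and MITF were below both LacZ samples in all 4 ARID1A-deficient samples, and none of them was called. The same order held for 7 of the 21 tested genes of this list and for 10.4% of all tested genes.

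**Figure D4:**
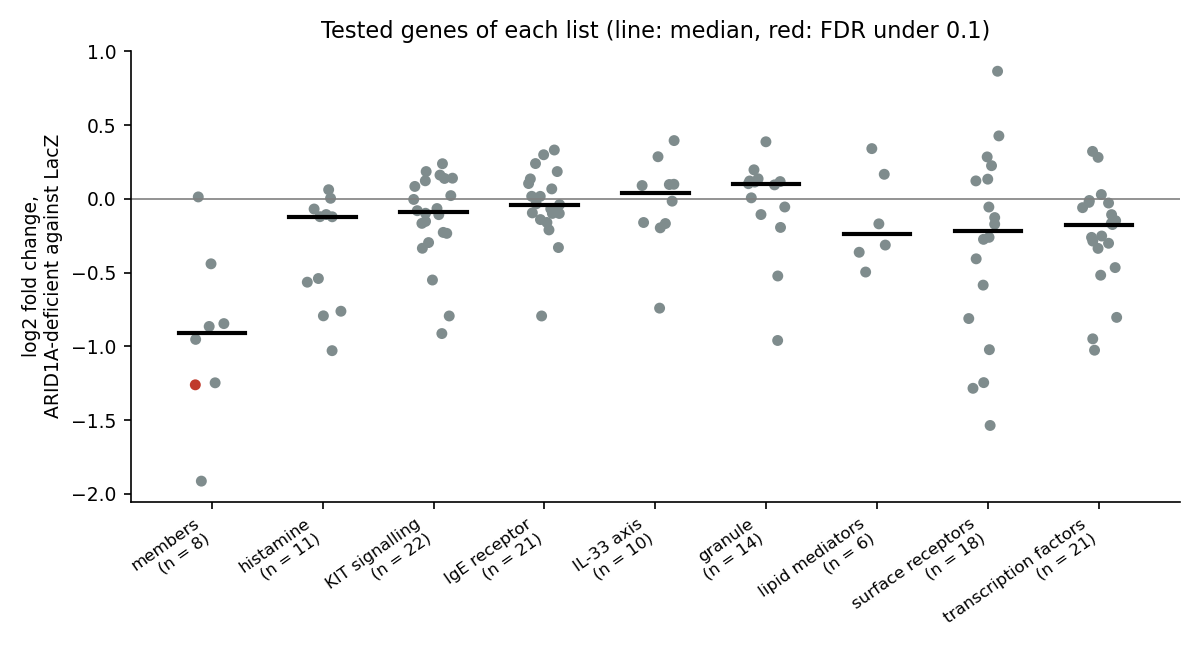
Log2 fold change of the ARID1A-deficient samples (sg1 and sg5 joined) against LacZ on the vertical axis, with 1 point for each tested gene of a list, the number of tested genes under its name and the median as a line. HDC is the only point called at an FDR of 0.1 (red), and the medians of the 8 pathway lists lie between −0.24 and 0.10, against −0.91 for the members.

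Because GATA factors and MITF are known regulators of mast cell genes, the promoter of each member was searched for their words in the RefSeq table (GRCh38.p14), over the 250 bases before each RefSeq start, leaving out the 50 bases after it. The table held 8 promoters for 7 members, and TPSAB1 and TPSB2 were not matched. The GATA words were AGATAA or TGATAA and the same words with a final G (AGATAG or TGATAG), searched on both strands, and they occurred in 22.3% of 35116 promoters of this length, and the words CACGTG and CATGTG of the MITF type in 15.2%. GATA words were present for 3 members, CPA3, MS4A2 and IL1RL1, and a word of the MITF type for CPA3 alone. The upstream one of the 2 IL1RL1 promoters had 4 GATA words and the downstream one had 0. The promoter of HDC, which was the member called and held none of these words, and those of MS4A2 and CPA3, which held some, are given with GATA words in capitals. They are at chr15:50265727-50265976 (minus strand), chr11:60088414-60088663 (plus strand) and chr3:148865046-148865295 (plus strand). The RefSeq starts of HDC, MS4A2 and CPA3 lie inside the GENCODE 29 spans given above, so the windows of HDC and MS4A2 fall wholly, and that of CPA3 partly, within those spans.
HDC: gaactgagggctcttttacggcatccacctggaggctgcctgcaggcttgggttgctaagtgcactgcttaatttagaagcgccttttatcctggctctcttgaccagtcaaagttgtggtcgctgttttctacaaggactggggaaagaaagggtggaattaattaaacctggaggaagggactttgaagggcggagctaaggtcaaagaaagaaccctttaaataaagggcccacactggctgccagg
MS4A2: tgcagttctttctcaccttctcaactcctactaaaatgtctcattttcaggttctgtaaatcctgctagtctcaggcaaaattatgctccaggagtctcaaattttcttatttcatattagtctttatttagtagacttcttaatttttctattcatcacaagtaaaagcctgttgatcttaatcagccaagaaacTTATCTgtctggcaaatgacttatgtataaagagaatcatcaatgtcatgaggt
CPA3: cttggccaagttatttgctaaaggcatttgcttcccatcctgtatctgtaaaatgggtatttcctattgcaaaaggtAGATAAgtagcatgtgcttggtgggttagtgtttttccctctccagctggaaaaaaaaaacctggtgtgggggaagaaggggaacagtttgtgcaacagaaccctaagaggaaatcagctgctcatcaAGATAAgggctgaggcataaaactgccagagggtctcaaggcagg
The MS4A2 word begins 54 bases before the start and those of CPA3 begin 173 and 45 bases before it. In CPA3 the MITF-type word begins 163 bases before the start and does not overlap a GATA word. A match describes the letters of the window and not binding, and the absence of a match covers this window only.

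The profile of HDC over the 6 samples was compared with those of 13117 genes that had a mean of at least 50 counts, by the root mean square difference of log2 CPM relative to the LacZ mean. The 5 nearest were LOXHD1 (0.0993), ASPHD2 (0.120), INPP4B (0.129), AP000781.2 (0.172) and KCNH2 (0.174). LOXHD1 encodes a protein of inner ear hair cells and was at 3.40 and 3.77 CPM in LacZ, 1.56 and 1.73 with sg1 and 1.41 and 1.42 with sg5. INPP4B encodes a phosphoinositide phosphatase and was at 8.71 and 8.90 CPM in LacZ, 3.86 and 3.94 with sg1 and 4.11 and 3.58 with sg5, and KCNH2 encodes a potassium channel. AP000781.2 overlaps the eosinophil gene PRG2 on the same strand, so reads of these genes may not be separable. TPSAB1 ranked 24 by this measure, TPSB2 78 and SLC18A2 6483, and the other members had too few counts to rank. The ranking is a description over 6 samples that share the same LacZ libraries.

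**Figure D5:**
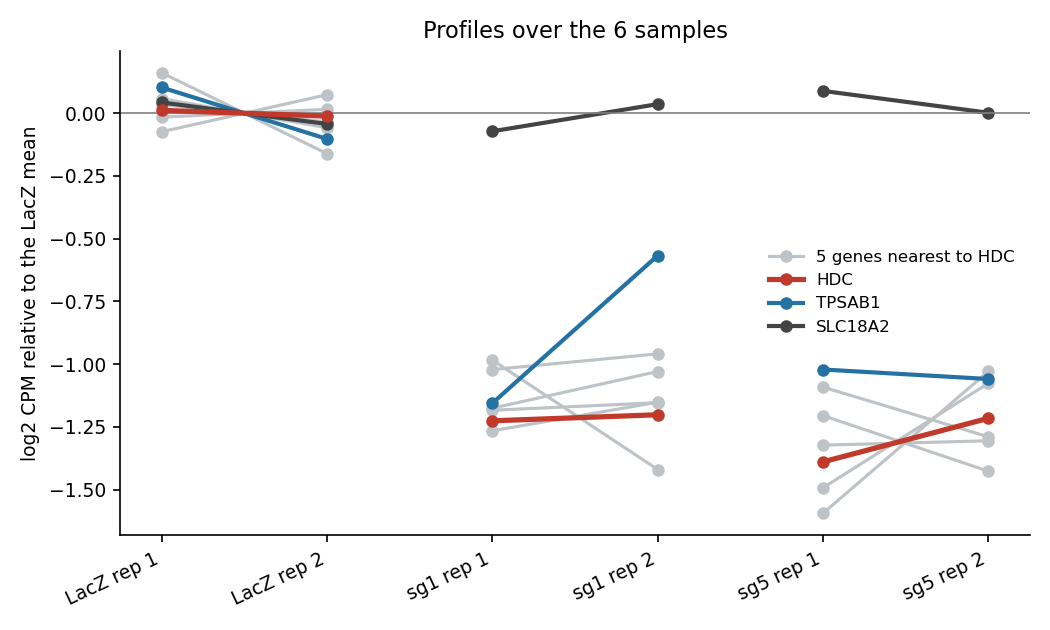
Log2 CPM relative to the LacZ mean (vertical axis) in the 6 samples for HDC (red), the 5 genes nearest to it (light gray), TPSAB1 (blue) and SLC18A2 (dark gray), with lines joining replicates of a group. HDC lies between −1.39 and −1.20 in the 4 ARID1A-deficient samples, TPSAB1 between −1.16 and −0.57, and SLC18A2 within 0.09 of 0.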

How the data were processed

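RNA-sequencing libraries of 6 NB4 samples were quantified per transcript by the authors. The authors deposited estimated counts, fractional where reads fit several transcripts, and TPM, computed by the authors per effective length. The submitters' processing notes name kallisto, DESeq2 and the genome build hg19, and the transcript set for these libraries is not given in the sources used here. Each table held 196354 transcripts, of which 181857 (92.6%) matched GENCODE 29 (GRCh38) by identifier and carried 95.4% to 95.5% of the counts of each sample. Counts of matched transcripts were added up per gene, then rounded. Coordinates are 1-based, on GRCh38, and come from this match. CPM are scaled by TMM factors.

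Genes kept by filterByExpr (minimum count 10) were tested with the robust quasi-likelihood fit of edgeR (version 4.0.16, R 4.3.3), normalized by TMM, in 1 model of all 6 samples by group. The common biological coefficient of variation was 16.6%. Benjamini-Hochberg adjustment was over 18514 genes, and an FDR under 0.1 was called, the threshold of the study. Standard errors come from the F statistic, and 95% intervals use its degrees of freedom. Exact intervals and the limit of 3 counts for a count of 0 cover counting error only. DESeq2 (version 1.42.0) was an alternative. Other alternatives changed the size factors, filter, transcript length offset, robust estimation, threshold, samples fitted and replicate block, left out each replicate in turn or summed the tryptases. A crossed block and a fit without 2 samples were chosen after seeing the data. Figures were drawn with matplotlib (version 3.10.9, Python 3.11.15).

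The members and all gene lists were chosen with earlier results of these data known. The genes named are the members, ARID1A, partners in the members' complexes, pathways and families, list genes called in any comparison, the gene furthest from 0 in each pathway list and the 5 nearest to HDC. Of the list genes, ORAI1, TRAC and TRBC1 were not matched. A member removed by filterByExpr was taken as too low to judge. The labels do not say whether replicates came from separate cultures, so p-values measure only the spread between these samples, which may be technical. Replicates of each group differed by more than sampling noise (chi-square per gene of 19.9 in LacZ, 70.0 in sg1 and 86.1 in sg5 over 13134 genes).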

Additional observations from a re-analysis of the deposited data

Results flagged for a closer look

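In the 4 ARID1A-deficient samples, 35 named genes were examined for a sample that stood far from the other 3, by the ratio of its gap to the whole range, and 3 of them exceeded the 95% limit of Dixon's test. Chance gives about 1 in 20. All 3 concerned sg5 replicate 1, but AP000781.2 was named because its profile over these samples was near that of HDC. Its flag is therefore not independent of the HDC flag. For HDC, sg5 replicate 1 was the lowest, at 7.80 CPM against 8.74 to 8.89 (ratio 0.864), which is still below both LacZ samples. For IL1RL1 it was the highest, at 0.256 CPM against 0.0900 to 0.0989 (ratio 0.946), from 12 counts. For AP000781.2, which overlaps PRG2, it was the lowest, at 15.9 CPM against 23.5 to 24.6 (ratio 0.868).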

How the results depend on the processing

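The log2 fold change of HDC stayed negative under all 19 alternatives in sg1 (−1.23 to −1.13), all 19 in sg5 (−1.40 to −1.20) and all 18 with both joined (−1.31 to −1.21). Its call was lost in all 3 comparisons with the replicate block (edgeR adjusted p = 0.452, 0.235 and 0.145), with the block and length offset (0.534, 0.199 and 0.141), without LacZ replicate 1 (0.665, 0.368 and 0.245) and without LacZ replicate 2 (0.673, 0.339 and 0.229). In sg1 alone it was also lost with a length offset (0.171), a mean of at least 50 counts (0.102), no robust estimation (0.103), an FDR of 0.05, and without sg1 replicate 1 (0.225) or 2 (0.170). The other tested members except SLC18A2 were also negative against LacZ under every alternative, and IL1RL1 came closest to 0 with the length offset (−0.01 in sg5). SLC18A2 stayed within −0.06 to 0.10.

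Genes called by edgeR in sg1, in sg5, with both joined and in sg1 against sg5 numbered 7, 18, 31 and 1. They numbered 345, 632, 701 and 86 without the low-count filter, 116, 201, 264 and 5 by DESeq2, and 424, 787, 809 and 215 without the pair of samples that stood apart. With a mean of at least 50 counts there were 4, 15, 19 and 0 (113 at an unadjusted p under 0.05), with only the groups compared 18 in sg1, 29 in sg5 and 0 in sg1 against sg5 (166 at that p), with an FDR of 0.05 12 joined and 0 in sg1 against sg5 (256 at that p), without robust estimation 17 joined, and with the length offset 2 in sg1 against sg5. Leaving out 1 replicate gave 1 to 33 calls in sg1, 0 (without LacZ replicate 2, 612 at that p) to 78 (without sg5 replicate 1) in sg5, 3 to 193 joined and 0 to 8 in sg1 against sg5. Deviations of same-numbered samples correlated at 0.07, 0.01 and −0.21 between the groups. With 2 replicates per group these values cannot decide whether a replicate number marks a shared culture or batch. The replicate block gave 1, 1, 3 and 0 calls (206 at that p in sg1 against sg5), with the length offset 1, 1, 5 and 0 (262), and a crossed block 59, 157, 194 and 2. The cause of these shifts was not tested.

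Directions turned only in genes that were not called there. Leaving out 1 replicate gave ARID1A −0.21 to 0.088 joined, FCER1G −0.14 to 0.086 in sg1, −0.25 to 0.024 in sg5 and −0.15 to 0.025 joined, AOC1 −1.25 to 0.14 in sg1, HRH1 −0.12 to 0.12 in sg1 and −0.22 to 0.022 joined, HRH2 −0.53 to 0.075 in sg1, −0.19 to 0.10 in sg5 and −0.28 to 0.023 joined, and IL3RA −0.012 to 0.32 in sg5. Without the pair of samples that stood apart, FCER1G was 0.031 in sg5 and HRH1 0.050 in sg1. With 0 to 16 counts per sample, depth limited KIT and CPA3.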
